A study of Mus musculus with 6 samples.

Results

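The endoplasmic reticulum (ER) unfolded protein response was followed through 10 genes in mouse hearts that had lost Mrps5, a protein of the mitochondrial ribosome: Hspa5, Hsp90b1, Dnajb9, Dnajc3, Pdia4, Sdf2l1, Herpud1, Xbp1, Ern1 and Atf6. They were taken by gene name from a table of 54532 genes, and all 10 were found and tested. The question was whether the chaperone genes read by ATF6 and XBP1 moved together with the ATF4 response in these hearts. RNA from 6 hearts was sequenced, 3 from control mice (Mrps5 fl/fl, called Ctrl) and 3 from knockout mice (Mrps5 fl/fl; MCM, called cKO). MCM is a Cre recombinase driven by the αMHC promoter, so that Mrps5 is deleted in cardiomyocytes and only after tamoxifen. Mice of both groups carried the floxed gene, received tamoxifen at 45 mg/kg/day for 5 days from 8 weeks of age, and were sampled 12 weeks after the injections. Ctrl mice lacked the MCM transgene, so Mrps5 loss and the presence of an active Cre cannot be told apart. The remaining cells of a heart, such as fibroblasts, endothelial cells and macrophages, kept Mrps5.

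The ER folds secreted and membrane proteins. When unfolded proteins build up in it, PERK, IRE1 and ATF6, sensors in the ER membrane, are released from the chaperone BiP. ATF6 is cut in the Golgi to a transcription factor, IRE1 splices Xbp1 mRNA so that it encodes a second factor, and PERK phosphorylates eIF2α, which raises translation of ATF4 while most other proteins are made less. Kinases other than PERK also phosphorylate eIF2α, so that ATF4 can rise without ER stress, for instance when mitochondria fail. ATF6 and XBP1 bind the ER stress response elements (ERSE) of chaperone genes, and these genes are therefore the usual readout of the ER arms, whereas amino acid synthesis genes and CHOP (Ddit3) are readouts of ATF4.

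The elements by which these factors are known to act lie just before the start sites. The stretches that hold them are shown because, of the 4 genes that carry them, Herpud1 alone passed the test used below. Windows from 250 bases before to 50 after the start (RefSeq, GRCm38.p6) were given for 9 of the 10 genes, Atf6 being the one not analysed here. These starts can differ from those of the gene spans given below, and the Hspa5 stretch lies inside its gene span. The letters searched on both strands were CCAAT and CCACG with 9 bases between (ERSE), ATTGG and CCACG with 1 base between (ERSE-II), TGACGTGG (UPRE, an XBP1 element) and TGATGNAA (CARE, the element of ATF4 with C/EBP partners). ERSE and ERSE-II both end in CCACG and thus overlap with the search for that half-site. ERSE was in 3 of the 9 windows and in 39 of 32851 windows of the table (0.119%). ERSE-II was in the Herpud1 window and in 12 of all windows (0.0365%). Each stretch is written 5′ to 3′ on the strand of its gene, with matches to ERSE, ERSE-II and CARE in capitals and the half-site on its own left in lower case.
Hspa5, ERSE, chr2:34772013-34772055, plus strand: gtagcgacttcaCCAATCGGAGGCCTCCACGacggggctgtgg
Dnajc3, ERSE, chr14:118937815-118937857, plus strand: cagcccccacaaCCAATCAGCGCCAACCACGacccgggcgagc
Hsp90b1, ERSE on each strand, chr10:86705521-86705668, minus strand: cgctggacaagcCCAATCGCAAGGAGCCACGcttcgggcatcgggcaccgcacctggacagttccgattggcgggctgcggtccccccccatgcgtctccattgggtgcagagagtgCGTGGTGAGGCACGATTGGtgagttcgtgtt
Herpud1, CARE on the opposite strand and then ERSE-II, chr8:94386305-94386399, plus strand: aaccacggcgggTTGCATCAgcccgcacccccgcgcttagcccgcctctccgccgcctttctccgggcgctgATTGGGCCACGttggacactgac
CARE was in 3.97% of all windows, in the Herpud1 window among the 9, and in 7 of 18 genes with a window from the ATF4 list described further on. The half-site CCACG was in 8 of the 9 windows against 32.8% of all, but also in 13 of the 18 ATF4 list genes and in 12 of 15 genes with a window from a list of further ER folding genes. UPRE was in 0 of the 9 and in 0.676% of all, and the Xbp1 window held none of the 5 motifs. UPRE and CARE were each in 2 of the 15 further folding genes. Shares of the lists count genes with the motif in any window, whereas the share of all counts windows. Such matches are letters in a window of fixed length and are not measured binding.

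Mrps5, the deleted gene, was at 5.20, 6.45 and 6.33 FPKM (fragments per kilobase of gene length, scaled to a library size) in the Ctrl hearts and at 1.12, 1.23 and 1.31 FPKM in the cKO hearts. The cKO mean was 20.4% of the Ctrl mean (log2 fold change −1.65, adjusted p = 0.000202), and the labels of all 6 hearts thus matched the gene. Between 15989322 and 24875499 reads were assigned to genes per heart. The library size behind the deposited FPKM was 0.913 to 0.980 times these reads in Ctrl and 1.06 times in each cKO heart. With the assigned reads as library size instead, the middle log2 fold change over the genes tested went from −0.02 to 0.09, and 3273 genes were higher and 1381 lower. Of 12944 genes tested, 33.3% passed an adjusted p of 0.05, 16.3% (2110) with higher and 17.0% (2205) with lower levels in cKO hearts, which became 2649 and 1621 when the scaling left out the genes of mitochondrial DNA, and 51.2% had groups that did not overlap. The summed FPKM of 8 cardiomyocyte markers ran from 15707 to 18810 in Ctrl hearts and from 8709 to 12093 in cKO hearts, with 5 of the 8 lower and none near 0 in any heart. In bulk tissue, fewer cells of a type and less RNA per cell cannot be told apart. The study's methods name ventricular tissue. The summed atrial markers (Myl7, Myl4, Sln and Nppa) ranged from 127.8 to 2052 FPKM among Ctrl hearts, the highest in Ctrl replicate 1. Among cKO hearts they ranged from 574.7 to 1652 FPKM. Most of the sum in each cKO heart was Nppa, at 469.2, 1127 and 938.0 FPKM, which the study also uses as a marker of hypertrophy. Myl7 ran from 18.1 to 678.6 FPKM in Ctrl and from 71.8 to 495.0 FPKM in cKO hearts. The atrial part of each sample thus cannot be read from the sum. The cKO replicate 2 heart had a mean of 0 FPKM over 4 Y-linked genes and 10.7 FPKM of Xist, whereas the other 5 had at least 7.61 and at most 0.127 FPKM. Its sex thus differed from that of the other hearts, whereas the study reports male mice only.

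Across the 10 genes, 2 rose (Sdf2l1 and Xbp1), 1 fell (Herpud1) and 7 did not pass the test. With scaling to the reads assigned, 5 were higher (also Dnajb9, Pdia4 and Atf6) and 1 lower, where 3273 of 12963 genes tested were higher and 1381 lower. In the deposited scaling it is 2 of 10 higher against 16.3% of all genes tested, and 1 of 10 lower against 17.0%. The groups did not overlap for 5 of the 10 (Dnajb9, Sdf2l1, Herpud1, Xbp1 and Atf6), against 51.2% of all genes. The median log2 fold change of the 10 was 0.24, and that of all genes tested was −0.02. Fold changes are cKO minus Ctrl on the scale of log2(FPKM + 1) and understate the change of genes with low values. With 3 hearts against 3, an exact two-sided permutation test of a single gene cannot go below p = 0.1, so the calls rest on the limma fit over all genes.

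**Figure D1:**
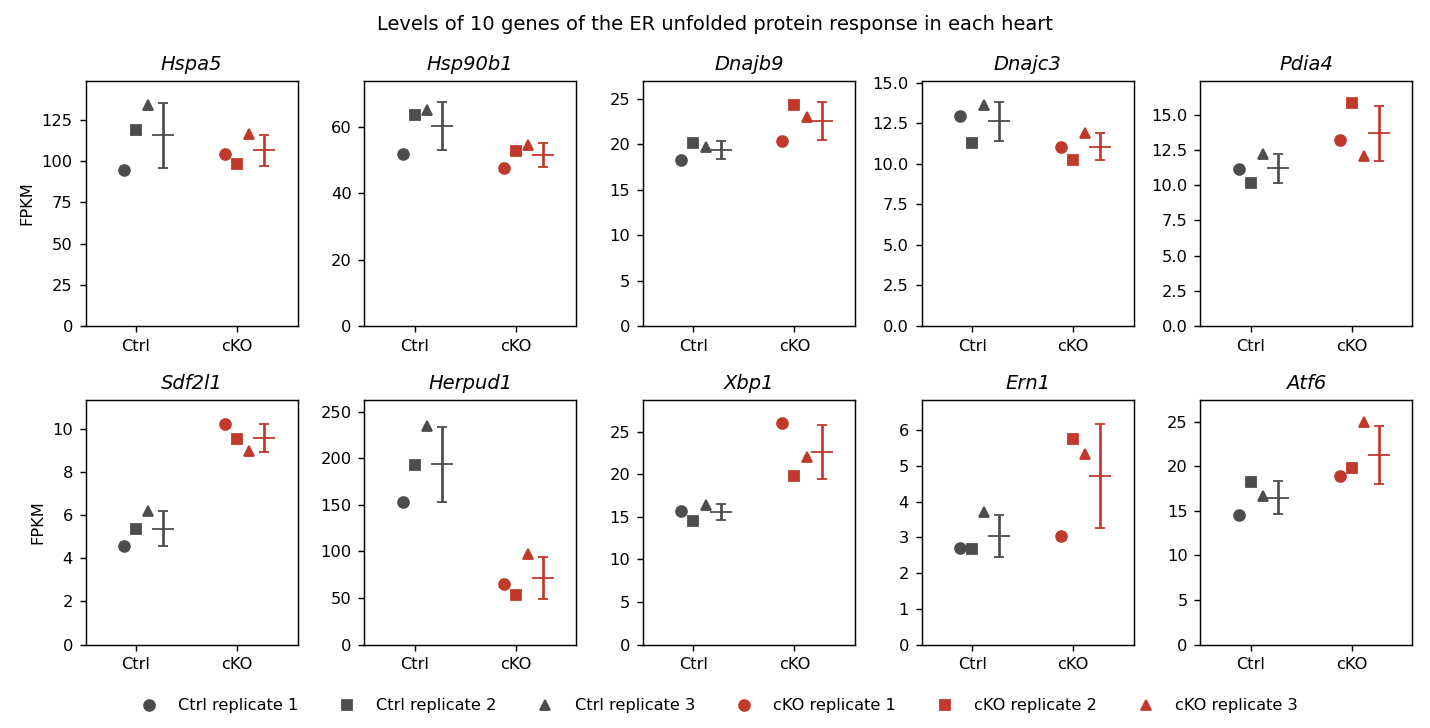
FPKM (y axis, from 0) of each of the 10 genes in the 3 Ctrl hearts (grey) and the 3 cKO hearts (red), 1 point per heart with the marker shape giving the replicate number, and the bar beside them giving the mean and SD. Herpud1 lies between 153.5 and 234.4 FPKM in Ctrl hearts and between 52.8 and 96.9 in cKO hearts, while the Hspa5 points of both groups share the range from 94.5 to 133.9.

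Hspa5 and Hsp90b1, the most abundant chaperone genes of the 10 apart from the ERAD gene Herpud1, did not pass the test. Hspa5 encodes BiP, the HSP70 chaperone that holds the sensors silent, and lies on chr2:34771970-34777547 (plus strand, 9 exons). It was at 94.5, 118.8 and 133.9 FPKM in Ctrl hearts and 104.5, 98.5 and 116.6 FPKM in cKO hearts. All 3 cKO values lay within the Ctrl range. The means were 115.7 ± 19.9 and 106.5 ± 9.18 FPKM (SD, n = 3), with a log2 fold change of −0.11 (SE 0.138, 95% interval −0.44 to 0.22, adjusted p = 0.584). On the deposited scale a rise of more than 0.22 is outside the interval for this classical ER stress gene, whose promoter carries the ERSE printed above, and with scaling to the reads assigned its value was 0.04 (adjusted p = 0.828).

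Hsp90b1 encodes GRP94, the HSP90 of the ER, and lies on chr10:86690209-86705509 (minus strand, 13 exons). It was at 52.0, 63.7 and 65.1 FPKM in Ctrl hearts and 47.6, 52.7 and 54.5 FPKM in cKO hearts. The lowest Ctrl heart lay among the cKO hearts, and the other 2 lay above them. The log2 fold change was −0.22 (SE 0.108, 95% interval −0.47 to 0.04, adjusted p = 0.165). The gene overlaps 1810014B01Rik on the opposite strand, which averaged 3.74 FPKM in Ctrl and 1.83 FPKM in cKO hearts, and how the counting treated strand was not given in the sources used here. The ratio of Hsp90b1 to Hspa5 ran from 0.486 to 0.551 in Ctrl hearts and from 0.455 to 0.535 in cKO hearts, so the ratios of the groups overlapped.

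Of the co-chaperones with a J domain, which drive the ATPase of BiP, Dnajc3 and Dnajb9 had opposite signs and neither passed the test. Dnajc3 encodes p58IPK, which is also an inhibitor of PERK, and lies on chr14:118937976-118981697 (plus strand, 12 exons). It was at 12.9, 11.3 and 13.6 FPKM in Ctrl hearts and 11.02, 10.3 and 11.9 FPKM in cKO hearts. The groups overlapped, since the highest cKO heart exceeded the lowest Ctrl heart. Its log2 fold change was −0.17 (SE 0.0933, 95% interval −0.40 to 0.05, adjusted p = 0.193).

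Dnajb9 encodes ERdj4, a target of XBP1 that brings BiP to IRE1, and lies on chr12:44205559-44210326 (minus strand, 3 exons). It was at 18.3, 20.1 and 19.7 FPKM in Ctrl hearts and 20.3, 24.3 and 23.0 FPKM in cKO hearts. The groups did not overlap, but the lowest cKO heart was close to the highest Ctrl heart. The log2 fold change was 0.21 (SE 0.0878, adjusted p = 0.111). It passed with a scaling that left out the genes of mitochondrial DNA (0.29, adjusted p = 0.032) and with scaling to the reads assigned (0.35, adjusted p = 0.0186).

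Pdia4 encodes ERp72, a disulfide isomerase, and lies on chr6:47796141-47813430 (minus strand, 10 exons). It was at 11.2, 10.2 and 12.3 FPKM in Ctrl hearts and 13.2, 15.8 and 12.0 FPKM in cKO hearts. The third cKO heart lay just below the third Ctrl heart, and the other 2 cKO hearts lay above all Ctrl hearts. Its log2 fold change was 0.26 (SE 0.115, 95% interval −0.01 to 0.54, adjusted p = 0.121), and it passed with scaling to the reads assigned (0.40, adjusted p = 0.0441).

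Sdf2l1 was the chaperone gene among the 10 that rose. Its product is a small ER protein that binds J domain proteins and keeps unfolded proteins from aggregating during BiP cycles, and the gene lies on chr16:17130138-17132383 (minus strand, 3 exons). It was at 4.59, 5.34 and 6.19 FPKM in Ctrl hearts and 10.2, 9.51 and 8.97 FPKM in cKO hearts. Every cKO heart lay well above every Ctrl heart. The mean went from 5.37 ± 0.801 to 9.57 ± 0.636 FPKM (SD, n = 3), a ratio of 1.78, or 0.74 on the log2 scale with an SE of 0.107 (adjusted p = 0.0036). These levels rest on 97 to 250 reads per heart, the fewest of the 10 genes. Its promoter window held the half-site and none of the longer motifs. Against Dnajc3 in the same heart, Sdf2l1 was at 0.355, 0.472 and 0.454 in Ctrl and at 0.929, 0.926 and 0.753 in cKO hearts, and these ratios did not overlap between the groups.

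Herpud1 fell, and it fell further than any of the other 9 changed. It encodes HERP, a ubiquitin-like membrane protein that organises the ER-associated degradation (ERAD) complex around the ligase HRD1, and it is induced in ER stress through ERSE-II and CARE. The gene lies on chr8:94386438-94395377 (plus strand, 8 exons). It was at 153.5, 193.3 and 234.4 FPKM in Ctrl hearts and 64.9, 52.8 and 96.9 FPKM in cKO hearts. The highest cKO heart was far below the lowest Ctrl heart. The mean went from 193.7 ± 40.4 to 71.5 ± 22.8 FPKM (SD, n = 3), which is 36.9% of Ctrl, with a log2 fold change of −1.45 (SE 0.243, 95% interval −2.02 to −0.87, adjusted p = 0.00575). The values rest on 2562 to 13228 reads per heart.

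In each of the 3 Ctrl hearts Herpud1 was the most abundant of the 10 genes per length, and in each of the 3 cKO hearts it came after Hspa5. The ratio of Herpud1 to Hspa5 was 1.62, 1.63 and 1.75 in Ctrl hearts and 0.621, 0.536 and 0.832 in cKO hearts. The ratios of the groups lay apart, and within each group the hearts stood in the same order for both genes. The summed FPKM of all 10 genes was 379.9, 458.2 and 521.9 in Ctrl and 319.7, 309.4 and 376.3 in cKO hearts, without overlap, but scaled to the reads assigned the groups overlapped (372.1 to 507.5 against 328.7 to 398.6). Without Herpud1 it was 226.4, 264.8 and 287.5 in Ctrl and 254.9, 256.6 and 279.4 in cKO hearts, and the groups overlapped. Beside the fall of Herpud1, the summed cardiomyocyte markers were lower in each cKO heart by the ranges given above. Their part in the Herpud1 result was not tested.

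Of the sensors and their factor, Xbp1 rose, and Ern1 and Atf6 had higher means that did not pass. Xbp1 encodes the factor made by the IRE1 branch and lies on chr11:5520659-5525893 (plus strand, 5 exons). It was at 15.7, 14.5 and 16.4 FPKM in Ctrl hearts and 26.1, 19.9 and 22.1 FPKM in cKO hearts. All 3 cKO hearts lay above the Ctrl hearts. The ratio of means was 1.46 and the log2 fold change 0.51 (SE 0.109, adjusted p = 0.0132). Gene values add up spliced and unspliced Xbp1 mRNA, so the activity of IRE1 cannot be read from them.

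Ern1 encodes IRE1α, the kinase and nuclease that splices Xbp1, and lies on chr11:106394650-106487852 (minus strand, 22 exons). It was at 2.70, 2.68 and 3.71 FPKM in Ctrl hearts and 3.05, 5.75 and 5.34 FPKM in cKO hearts, the lowest of the 10 genes in every heart. The first cKO heart lay within the Ctrl range and the other 2 above it. The log2 fold change was 0.48 (SE 0.207, 95% interval −0.01 to 0.97, adjusted p = 0.118). Without cKO replicate 1 it was 0.71 and passed (adjusted p = 0.016), so this heart decided the call.

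Atf6 lies on chr1:170704674-170867771 (minus strand, 16 exons). It was at 14.5, 18.2 and 16.7 FPKM in Ctrl hearts and 18.9, 19.9 and 24.9 FPKM in cKO hearts. The groups did not overlap, with the lowest cKO heart close to the highest Ctrl heart. The log2 fold change was 0.34 (SE 0.128, 95% interval 0.04 to 0.65, adjusted p = 0.08), and it passed with the scaling without mitochondrial DNA genes (0.43, adjusted p = 0.0338) and with scaling to the reads assigned (0.49, adjusted p = 0.0194). ATF6 acts after cleavage, which RNA levels do not show.

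**Figure D2:**
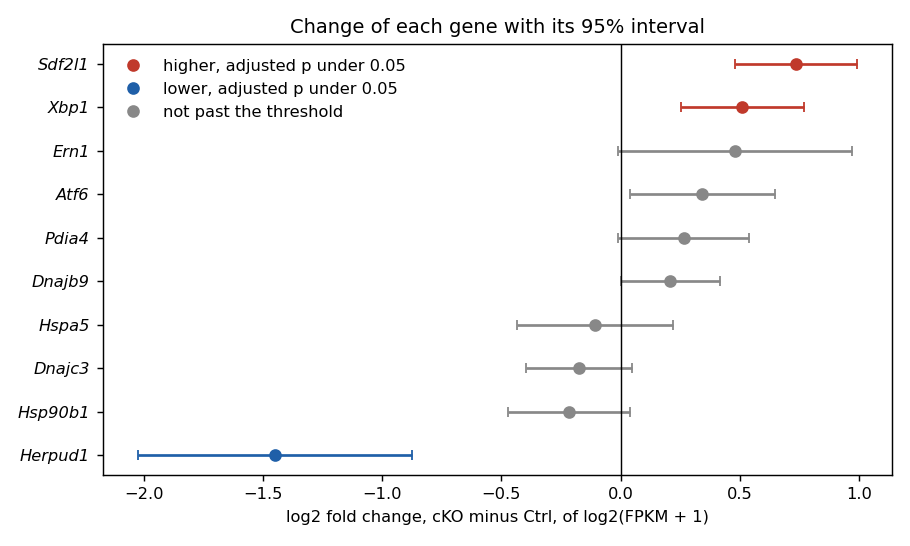
Log2 fold change (x axis, cKO minus Ctrl on the log2(FPKM + 1) scale) of each of the 10 genes, ordered by size, with bars for the 95% interval of the limma fit. Sdf2l1 (0.74) and Xbp1 (0.51) in red and Herpud1 (−1.45) in blue passed the threshold. Of the genes in grey, the intervals of Hspa5, Dnajc3, Hsp90b1, Pdia4 and Ern1 span 0, and those of Dnajb9 and Atf6 begin just above it.

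The 4 genes with ERSE or ERSE-II were Hspa5, Hsp90b1, Dnajc3 and Herpud1, and these were also the 4 of the 10 with a log2 fold change below 0, except that Hspa5 was at 0.0043 without Ctrl replicate 3. Only Herpud1 of the 4 passed the test. The genes with the half-site alone (Pdia4, Dnajb9, Ern1 and Sdf2l1) and Xbp1 had values above 0. With scaling to the reads assigned, too, the value of Hspa5 was above 0 (0.04). This split was seen after the values were known, and it did not extend to the further folding genes: 5 of the 15 with a window held ERSE (Calr, Canx, Creld2 and Pdia6) or ERSE-II (Dnajb11), and all 5 had values above 0, from 0.02 for Canx to 0.63 for Creld2, which alone of them passed. These 5 were named for the motif, after their values were seen.

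Further ER folding genes outside the 10 were taken as a list of 20, all of which were tested. Of these, 9 rose and 0 fell, against 16.3% and 17.0% of all genes, with a median log2 fold change of 0.23. Ero1l, the oxidase that renews disulfide isomerases, went from a mean of 2.94 to 8.20 FPKM (1.22, adjusted p = 0.000184). Its cKO values of 8.18, 8.35 and 8.07 FPKM were nearly the same in the 3 hearts, and Ero1l is also a target of CHOP and stands in the ATF4 list as well. Fkbp2, a prolyl isomerase of the ER, rose by 0.64 and Creld2, an ER protein induced by ER stress, by 0.63. The count of 9 depended on single hearts, with 4 called without Ctrl replicate 1, 4 without Ctrl replicate 2 and 5 without cKO replicate 1. It also depended on the scaling, with 11 called without mitochondrial DNA genes and 13 with scaling to the reads assigned. Of all genes tested, 2649 and 3273 were higher under these scalings, against 2110 in the deposited one.

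ERAD genes, which recognise, extract and ubiquitinate misfolded proteins, were a list of 18, of which 17 were tested and Derl3 was below the filter. Of these, 7 rose and 1 fell, against 16.3% and 17.0% of all genes, with a median of 0.27. Derl1, a channel component, rose by 0.59, and Edem2, which trims mannose from misfolded glycoproteins, by 0.42. Erlec1, a lectin of the pathway, fell by 0.62 on the log2 scale, from 12.8 to 8.01 FPKM. Herpud1 thus moved against the median of the genes it works with. The count of 7 went down to 2 without Ctrl replicate 2 or cKO replicate 3. It went to 3 without any one of Ctrl replicate 1, Ctrl replicate 3 and cKO replicate 1 or with no filter on low values. With scaling to the reads assigned it was 11, where 3273 of 12963 genes tested were higher.

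Genes of translocation into the ER and export from it were a list of 16, all tested, of which 7 rose and 0 fell, against 16.3% and 17.0% of all genes, with a median of 0.29. With scaling to the reads assigned, 11 rose, where 3273 of 12963 genes tested were higher. Spcs3, a signal peptidase subunit, rose by 0.87, Kdelr3, which returns chaperones from the Golgi, by 0.81, and Sec61b, of the translocon, by 0.69. Spcs3 and Kdelr3 overlap other genes, and reads of the overlaps cannot be told apart without strand. Beside these lists, the markers of each cell type were summed. The 8 of fibroblasts, which secrete matrix, ran from 162.5 to 188.7 FPKM in Ctrl and from 163.1 to 195.2 FPKM in cKO hearts. Of these, 3 were higher and 1 lower, and the sum hides opposite changes. Its largest part in each heart was Dcn, at 98.2 to 112.0 FPKM in Ctrl and 55.1 to 77.6 FPKM in cKO hearts. The matrix genes Col1a1, Col1a2, Col3a1 and Postn were each higher in every cKO heart than in any Ctrl heart. Lum, Pdgfra and Tcf21 overlapped between the groups. The study reports increased cardiac fibrosis in cKO mice. The 6 endothelial markers ran from 120.4 to 139.9 in Ctrl and from 78.2 to 93.2 FPKM in cKO hearts, with 4 lower. The 5 mural markers went from 166.5 to 184.1 in Ctrl and from 103.9 to 133.1 FPKM in cKO hearts (1 higher, 2 lower), and the 6 macrophage markers from 186.9 to 245.7 and from 132.4 to 197.0 FPKM (1 lower). The 5 markers of B and plasma cells, which express ER genes at high levels, summed to 1.92 to 2.40 FPKM in Ctrl and 1.47 to 2.03 FPKM in cKO hearts. Most of this was Mzb1, an ER protein of these cells, at 0.899 to 1.91 FPKM, the one that was tested and it did not pass, while Jchain was at most at 0.363 FPKM and Ms4a1 at 0 in all 6 hearts. The part of cell composition in the ER lists was not tested.

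Sensors, proteases and modulators outside the 10 were a list of 15, of which 14 were tested and Ern2, the IRE1 of the gut, was listed at 0 in all 6 hearts. Of the 14, 3 rose and 2 fell, with a median of 0.14, and these shares were near the 16.3% and 17.0% of all genes. Wfs1, an ER membrane protein that restrains ATF6, rose by 0.72, Bbc3, the cell death gene PUMA, by 0.60 and Creb3, an ER-bound factor cut as ATF6 is, by 0.39. Creb3 overlaps Tln1 and Gba2, of which Tln1 averaged 17.6 and 28.4 FPKM in the groups. Bfar, an ER membrane regulator of apoptosis, fell by 0.43, and Nck1, an adaptor that binds PERK and IRE1, by 0.25 on the log2 scale. The 2 lower calls became 1 without any single heart of the 6. With the scaling without mitochondrial DNA genes and with that to the reads assigned, 7 genes were higher, where 2649 and 3273 of all genes tested were higher. PERK itself, Eif2ak3, was at 1.56, 1.40 and 1.91 FPKM in Ctrl hearts and 2.04, 1.57 and 1.54 FPKM in cKO hearts. These ranges overlapped, and the log2 fold change was 0.05 (95% interval −0.21 to 0.31, adjusted p = 0.759). Atf6b, the relative of Atf6, had 0.26 and an adjusted p of 0.0847.

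RNAs that IRE1 cuts when it degrades mRNA (RIDD) were a list of 5, of which 4 were tested. Bloc1s1 was below the filter, with 3 to 14 reads per heart, and Pdgfrb also stands among the mural markers. Here 0 passed in either direction by limma, also at an unadjusted p of 0.05, and the median was −0.09. With 16.3% of all genes tested higher and 17.0% lower, 4 genes are too few to read a result from this count. In the limma voom fit on recovered reads, 0 passed as well. Without cKO replicate 2, 1 was lower.

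ATF4 and CHOP with their targets were a list of 24, of which 23 were tested. Of these, 15 rose and 1 fell, against 16.3% and 17.0% of all genes, with a median of 1.26, beside 0.24 for the 10 ER genes. Asns, asparagine synthetase, went from a mean of 1.66 to 65.9 FPKM (4.68), Psat1, of serine synthesis, from 1.40 to 26.0 FPKM (3.51), and Trib3, a pseudokinase induced by ATF4 and CHOP, from 1.46 to 23.3 FPKM (2.92). Vldlr, a lipoprotein receptor, fell by 1.71 on the log2 scale, and 2 genes were lower without cKO replicate 1. Atf4 was at 37.9, 41.8 and 39.3 FPKM in Ctrl hearts and 66.2, 152.9 and 125.2 FPKM in cKO hearts. Every cKO heart was above the Ctrl hearts, and the log2 fold change was 1.43 (adjusted p = 0.010). Ddit3 was at 7.75, 8.06 and 6.78 FPKM in Ctrl hearts and 10.5, 71.0 and 22.3 FPKM in cKO hearts. The groups did not overlap, but the cKO hearts differed so much that it did not pass (1.66, adjusted p = 0.0699). Ddit3 overlaps Mars from base 127296221 to 127296288 of chromosome 10, and the mean of Mars was 15.3 FPKM in Ctrl and 37.8 FPKM in cKO hearts. A second Ddit3 entry lies inside the one used here, on the same strand, and averaged 0 FPKM in both groups. Its effect on the counting was not tested.

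**Figure D3:**
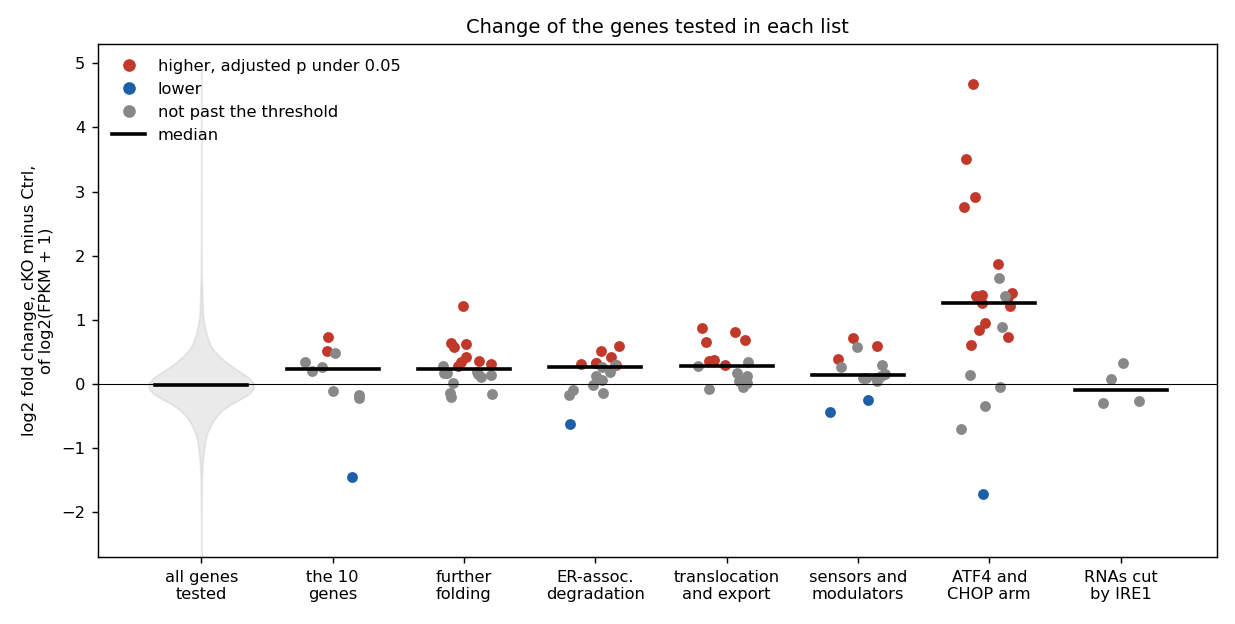
Log2 fold change (y axis, cKO minus Ctrl on the log2(FPKM + 1) scale) of each gene tested in the 10 genes and the 6 lists, 1 point per gene, with the spread of all 12944 genes in grey and the medians as black lines (genes beyond the axis are not drawn). The median of the ATF4 and CHOP arm is 1.26, and those of the 4 ER lists lie between 0.14 and 0.29.

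The cKO hearts ranked differently from gene to gene, both within the ER genes and within the ATF4 list. Of the ER genes, Ern1, Atf6, Dnajb9 and Hsp90b1 were lowest in cKO replicate 1 among the cKO hearts, at 3.05, 18.9, 20.3 and 47.6 FPKM, whereas Xbp1 and Sdf2l1 were highest in that heart, at 26.1 and 10.2 FPKM. Of the ATF4 list, Atf4, Ddit3 and Trib3 were lowest there, at 66.2, 10.5 and 4.75 FPKM, whereas Asns and Psat1 were highest, at 72.4 and 30.8 FPKM. Herpud1 was lowest in cKO replicate 2, the heart with the highest Atf4 and Ddit3 and also the one whose sex differed. These genes were singled out after their values were seen, 3 hearts allow no test of such an order, and cKO replicate 1 also had the fewest reads, 15989322.

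**Figure D4:**
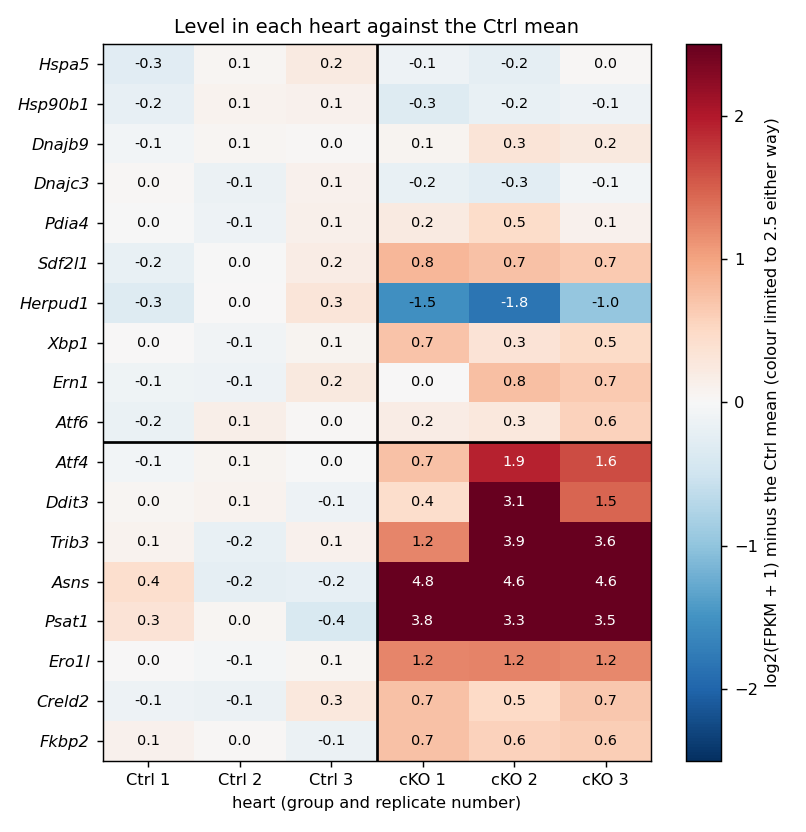
Log2(FPKM + 1) minus the Ctrl mean for the 10 genes (above the line) and 8 genes named from the lists (below it) in each heart, with red for higher and blue for lower. Herpud1 is blue in all 3 cKO hearts, and Atf4, Ddit3, Trib3 and Ern1 are paler in cKO 1 than in cKO 2 and cKO 3.

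Sdf2l1, Herpud1 and Xbp1 kept their direction and their call under each of 16 alternative settings. Their log2 fold changes ran from 0.65 to 0.87, from −1.69 to −1.26 and from 0.41 to 0.65, and the highest adjusted p were 0.022, 0.0244 and 0.0496. Hsp90b1, Dnajc3 and Hspa5 passed under none of the 16, and Hspa5 ran from −0.25 to 0.04. When the scaling left out mitochondrial DNA genes, the median of all genes moved to 0.05 and 4 of the 10 were higher, the added ones being Dnajb9 and Atf6.

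**Figure D5:**
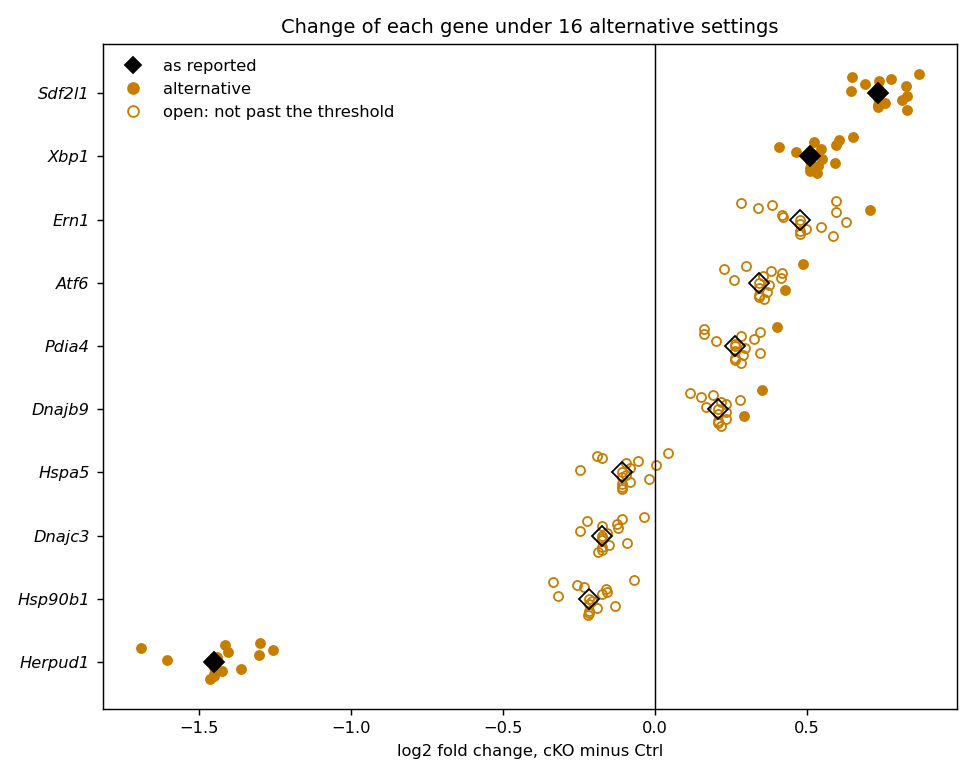
Log2 fold change (x axis, cKO minus Ctrl) of each of the 10 genes as reported (black diamond) and under 16 alternatives (circles, spread vertically for legibility), filled where the adjusted p was under 0.05. All points of Sdf2l1, Xbp1 and Herpud1 are filled, and of the other 7 genes Atf6 and Dnajb9 have 2 filled circles each and Ern1 and Pdia4 have 1.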

How the data were processed

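RNA of 6 mouse hearts (poly(A) libraries) was measured. Per the study's methods and the submitters' notes, the authors aligned reads with HISAT2 2.0.5, counted them per gene with featureCounts 1.5.0-p3 and deposited FPKM values per gene and heart. The notes name mm9, but 53499 of the 54409 gene identifiers shared with GENCODE M21 (GRCm38) have identical start and end, and coordinates are given on GRCm38. DESeq2 was also used by the authors, in a version on which methods and notes differ. Strand setting was not given in the sources used here. Values were whole reads within 0.01 read for 100% of entries, which gave the depth.

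Genes that averaged 0.5 FPKM or more were tested as log2(FPKM + 1) with limma 3.58.1 (R 4.3.3, trend), with Benjamini-Hochberg adjustment over 12944 genes and a threshold of 0.05. Intervals are 95%, from the same fit. The method was tested on simulated data with far fewer changed genes than here and larger changes than most of the 10 genes had. The simulated hearts were evenly variable and scaled to the reads assigned. The test thus does not show how the method does with small changes, uneven hearts or the deposited scaling. Hearts are the replicates. Named genes were the 10, Mrps5, Eif2ak3, Atf4, Ddit3, Atf6b and, per list, the 3 highest and up to 2 lowest called genes with a mean of 1 FPKM in a group. 1 gene that this rule names is not reported here. Members and lists were chosen with earlier results of these data known.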

Additional observations from a re-analysis of the deposited data

How the results depend on the processing

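With a scaling that left out mitochondrial DNA genes, 4 of the 10 genes were higher in place of 2, and the share of higher calls among all genes went from 48.9% to 62.0%. With scaling to the reads assigned, chosen after seeing the data, 5 of the 10 were higher, that share was 70.3%, and Hspa5 was at 0.042 (adjusted p = 0.828). In the fits that left out 1 heart each, the folding genes called higher ran from 4 to 9 and the ATF4 and CHOP genes called lower from 1 to 2 (2 without cKO replicate 1). Without Ctrl replicate 1 and cKO replicate 2 together, an alternative chosen after seeing the data, 5 folding genes were higher. With the scaling without mitochondrial DNA genes 11 folding genes were higher, and with that to the reads assigned 13. Over all alternatives the ERAD genes called higher ran from 2 to 11, those of translocation and export from 5 to 11, sensors called higher from 2 to 7 and lower from 0 to 2, and RIDD targets lower from 0 to 1. The log2 fold change of Hspa5 ran from −0.25 to 0.0043 in the fits without 1 heart, the last without Ctrl replicate 3 (adjusted p = 0.985). Fits with fewer hearts have less precision, and for the rest the cause was not tested. With the replicate block 2 of the 10 genes were higher and 1 lower, as without it, and 1874 genes were higher and 1982 lower overall. Same-numbered hearts had correlations of deviations of −0.0554, 0.175 and −0.0148. Only for replicate 2 was the best match the heart of the same number. With 3 hearts per group this cannot exclude a pairing. Sdf2l1, with 97 reads in one heart, is the gene where depth limits precision most.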
